A study of Mus musculus with 4 samples.

Results

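Axonemal dyneins, the motors that make motile cilia beat, are folded and put together in the cytoplasm before they travel into the cilium. A set of dedicated proteins, the dynein arm assembly factors, works with HSP90 and HSP70 chaperones in this step. Loss of several of them causes primary ciliary dyskinesia, often with reversed organs, because the node, the left-right organiser of the mouse embryo, needs beating cilia to drive its fluid flow. The 10 genes examined were Dnaaf1, Dnaaf2, Dnaaf3, Dnaaf4, Dnaaf5, Dnaaf11, Zmynd10, Spag1, Ccdc103 and Cfap298. They are listed by name for this known role. Probes were matched by symbol, by accession and by the older names that the array uses, such as Lrrc50 for Dnaaf1 and Heatr2 for Dnaaf5. Of the 41174 gene probes on the array, 13 belonged to 9 of these genes. No probe was found for Dnaaf3, which is therefore not analysed here. All 13 probes were well above background in both genotypes on both arrays.

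The embryos were mice at the early headfold stage (about E7.75) on an Sv129/CD-1 hybrid background, and all carried GFP at the Noto locus, whose product is a homeodomain protein of node cells. The control group was heterozygous (Noto GFP/+) and the other group homozygous (Noto GFP/GFP), so no embryo without the GFP allele was measured. The distal piece of each embryo, which holds the node among other tissues, was cut off and collected in pools of 120 to 150, and a homozygous and a heterozygous RNA were hybridised together on a 2-colour Agilent array and again on another array with the dyes exchanged.

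There were 4 samples, 2 per genotype, which the labels call technical replicates. No biological replicate was given, so no significance test was made, and each ratio is the mean of the 2 arrays with their SD, which measures technical spread. The median gene spot had a foreground intensity of 305 (Cy3) and 438 (Cy5) on array 1 and of 400 and 722 on array 2, over backgrounds of 45.5 to 67. To be measured, a probe had to carry the scanner software's flag for a signal well above background on each array, in either genotype or in both, which left 27809 probes of 18624 genes. The brightest measured probe stands for a gene. A gene is called lower or higher where each of the 2 arrays shows a difference of 1.5-fold or more (a log2 ratio beyond 0.58) in 1 direction. In tissue pieces of this kind, fewer ciliated cells and less RNA per cell cannot be told apart.

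Probe sequences define which part of each transcript was read, and those shown are of Zmynd10 and Dnaaf1, which had the lowest ratios, of Ccdc103, whose dimmer probe gave opposite signs on the 2 arrays, and of Spag1 and Dnaaf11, whose probes cross a splice junction. Each is a 60-base oligonucleotide as the scanner files give it, written 5′ to 3′ in lower case, with its position on mouse build mm8.
Zmynd10, chr9:107409076-107409135: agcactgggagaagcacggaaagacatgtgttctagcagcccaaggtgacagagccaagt
Dnaaf1, brighter probe, chr8:122483596-122483655: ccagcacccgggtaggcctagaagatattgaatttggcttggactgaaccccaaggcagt
Ccdc103, brighter probe, chr11:102700349-102700408: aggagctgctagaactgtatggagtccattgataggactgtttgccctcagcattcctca
Ccdc103, dimmer probe, chr11:102699184-102699243: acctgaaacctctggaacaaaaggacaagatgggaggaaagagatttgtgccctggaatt
Spag1, chr15:36179214-36179370: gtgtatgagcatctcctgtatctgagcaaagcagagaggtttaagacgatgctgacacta
Dnaaf11, chr15:66210195-66226663: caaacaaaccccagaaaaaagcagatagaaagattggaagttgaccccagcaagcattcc
The Spag1 and Dnaaf11 probes span 157 and 16469 bases of the genome, so each crosses at least 1 intron and reads spliced RNA. The other 11 probes each span 60 bases and also match the unspliced gene.

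Zmynd10 and Dnaaf1 lay lowest in the homozygous pool, at about 68.0% and 70.7% of the heterozygous level, and the other 7 measured factors stayed within 0.17 of 0 on the log2 scale. By this 1.5-fold rule 0 of the 9 were lower and 0 were higher, where 2.33% of all measured genes were lower and 0.0591% higher. With a looser rule of a log2 ratio below -0.32 on each array, Zmynd10 and Dnaaf1 were the 2 lower and 0 were higher, where 6.36% of all measured genes were lower. Spiked-in control RNAs read compressed: the scanner software's slope of their measured against their intended log ratios was 0.809 on array 1 and 0.705 on array 2. With each array's ratios divided by its slope, an alternative chosen after seeing the data, Zmynd10 (-0.69 and -0.79) and Dnaaf1 (-0.61 and -0.72) passed the 1.5-fold rule, as did 3.68% of all measured genes in that direction, so the count of 0 depends on this scale. The median log2 ratio of the 9 was -0.08 (-0.05 on array 1 and -0.17 on array 2), beside -0.02 for all measured genes. The ratio was below 0 on both arrays for 6 of the 9, above 0 on both for 1, and of opposite sign for 2, where 34.0% of all measured genes were below 0 on both and 25.7% above. Without Zmynd10 and Dnaaf1, a choice made after seeing the values, the median of the remaining 7 was -0.07, with 4 of 7 below 0 on both arrays.

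**Figure D1:**
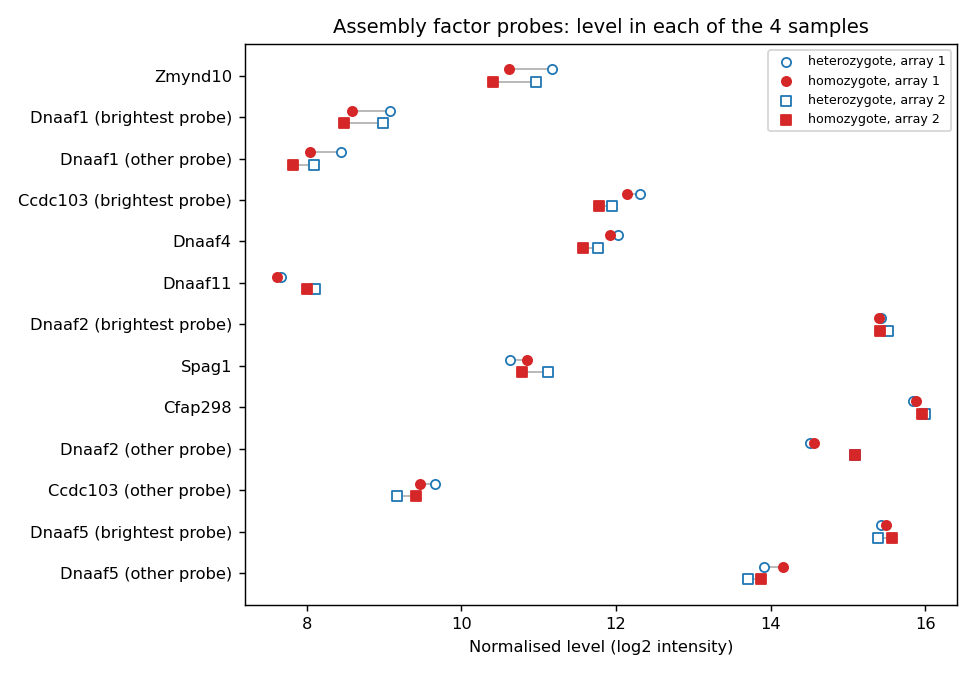
Normalised log2 intensity of the 13 probes of the 9 measured assembly factors in each of the 4 samples (open blue, heterozygote; filled red, homozygote; circles, array 1; squares, array 2), ordered by mean ratio. The homozygote lies left of the heterozygote on both arrays for Zmynd10 and for both Dnaaf1 probes, while the symbols of Spag1 and of the dimmer Ccdc103 probe change order between the arrays; levels of different probes are not comparable.

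Zmynd10 encodes a MYND zinc finger protein that binds the leucine-rich repeat protein DNAAF11 and helps to stabilise dynein chains. Its normalised log2 level was 11.18 in the heterozygote and 10.62 in the homozygote on array 1, and 10.96 and 10.40 on array 2. Both homozygote values were below both heterozygote values, so the groups did not overlap. How many of all measured genes separate in this way is not given here, so this and the separations below are descriptions only. The log2 ratios were -0.56 on array 1 and -0.55 on array 2, with a mean of -0.56 ± 0.0027 (SD, n = 2 arrays). That is 1.47-fold lower, just short of the 1.5-fold rule on each array on the scale without the spike-in slopes. Among all 18624 measured genes 3.73% had a lower mean ratio. The probe is at percentile 49.6 of brightness among the measured probes.

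Dnaaf1, known earlier as Lrrc50, encodes a leucine-rich repeat protein needed early in arm assembly. Its brighter probe read 9.07 in the heterozygote and 8.58 in the homozygote on array 1, and 8.99 and 8.48 on array 2. Again both homozygote values lay below both heterozygote values. The mean log2 ratio was -0.50 ± 0.013 (SD, n = 2 arrays), or 1.41-fold lower, and 4.70% of measured genes had a lower mean ratio. The other Dnaaf1 probe (chr8:122483912-122483971) read -0.34 ± 0.10, with -0.41 on array 1 and -0.27 on array 2. Its levels were 8.45 and 8.04 (heterozygote and homozygote) on array 1 and 8.09 and 7.82 on array 2, so the groups were separate there by a small margin. Both Dnaaf1 probes were dim, at percentiles 27.96 and 17.8 of brightness, where intensities are nearer to background.

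Dnaaf11, known earlier as Lrrc6, encodes the binding partner of ZMYND10. It did not share the size of the Zmynd10 ratio. Its level was 7.67 in the heterozygote and 7.61 in the homozygote on array 1, and 8.11 and 8.004 on array 2. The arrays differed by more than the genotypes did, and the groups overlapped. The mean log2 ratio was -0.08 ± 0.038 (SD, n = 2 arrays). This was the dimmest of the 13 probes, at percentile 13.8.

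Dnaaf5, or Heatr2, is a scaffold built of HEAT repeats. It was the only measured factor with ratios above 0 on both arrays, at 0.12 ± 0.089 (SD, n = 2 arrays). Its level was 15.43 in the heterozygote and 15.49 in the homozygote on array 1, and 15.39 and 15.57 on array 2. Both homozygote values exceeded both heterozygote values. The other Dnaaf5 probe read 0.21 ± 0.061 and was above 0 on both arrays too, but its levels overlapped between groups. They were 13.91 and 14.16 (heterozygote and homozygote) on array 1, and 13.71 and 13.87 on array 2. Neither probe reached the looser rule on either array.

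Dnaaf2, Dnaaf4 and Spag1 encode co-chaperones that link dynein chains to HSP90 or HSP70: DNAAF2, or kintoun, carries a PIH domain, and DNAAF4 and SPAG1 carry tetratricopeptide repeats. Dnaaf2 read 15.43 and 15.40 (heterozygote and homozygote) on array 1, and 15.52 and 15.41 on array 2. Both homozygote values lay just below both heterozygote values. The mean ratio was -0.07 ± 0.059 (SD, n = 2 arrays) on this brighter probe and 0.02 ± 0.037 on the other. The other Dnaaf2 probe read 0.044 on array 1 and -0.008 on array 2, so it gives no direction. Dnaaf4 read 12.02 and 11.93 on array 1, and 11.77 and 11.57 on array 2, a mean ratio of -0.14 ± 0.072. Dnaaf4 was lower in the homozygote on each array, but its level overlapped between groups because the 2 arrays differed. Spag1 read 10.63 and 10.84 on array 1, and 11.12 and 10.78 on array 2. Its log2 ratios of 0.22 and -0.34 had opposite signs, so its mean of -0.06 ± 0.40 gives no direction.

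Ccdc103 encodes a microtubule-binding protein that helps to attach arms to the axoneme, and Cfap298 a cytoplasmic protein needed for arm assembly. Ccdc103 read 12.31 and 12.14 (heterozygote and homozygote) on array 1, and 11.94 and 11.78 on array 2. The 2 arrays gave log2 ratios of -0.17 each, with an SD of 0.0013, a 1.12-fold difference. Because the arrays differed by more than the genotypes, its levels overlapped between groups. Its dimmer probe gave -0.20 on array 1 and 0.24 on array 2, so the direction rests on the brighter probe. Cfap298 read 15.84 and 15.88 on array 1, and 15.998 and 15.96 on array 2. Its ratio of -0.0037 ± 0.053 had opposite signs on the 2 arrays and did not differ from 0 beyond the technical spread.

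**Figure D2:**
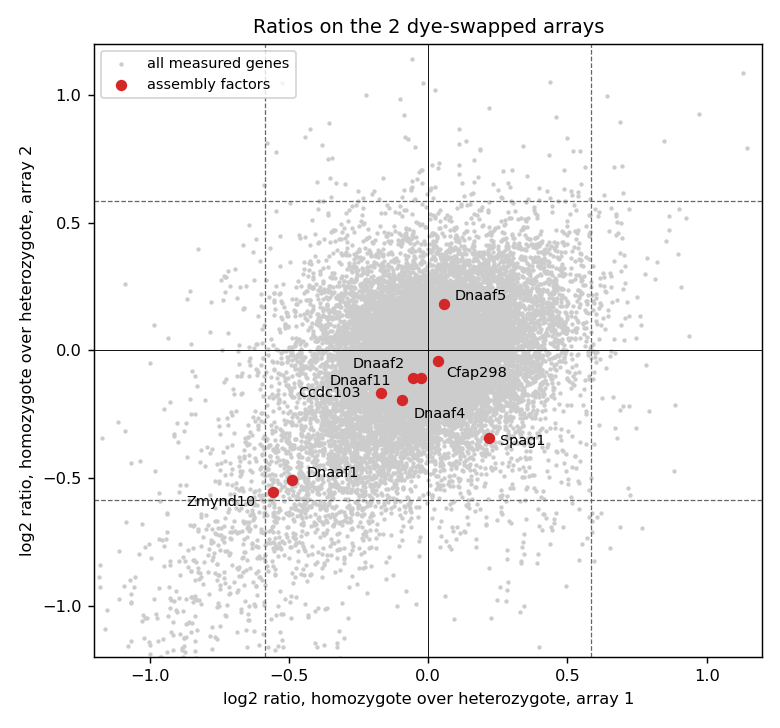
Log2 ratio of homozygote over heterozygote on array 1 (x axis) and array 2 (y axis) for all 18624 measured genes (grey) and the 9 assembly factors (red), with dashed lines at the 1.5-fold rule; 161 genes lie beyond the axes, which end at 1.2. Zmynd10 and Dnaaf1 lie near the corner of the rule at the lower left without passing it, and the other 7 lie in the dense part of the cloud.

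The median SD over the 2 arrays was 0.053 for the 9 factors and 0.12 for all measured genes. The ratios of Zmynd10 and Dnaaf1 were far larger than their own SD, but an SD of 2 arrays is itself poorly known and does not measure variation between pools of embryos. Split at the median brightness, a choice made after seeing the data, the shares differed: among genes dimmer than the median 4.03% were lower and 42.8% were below 0 on both arrays, against 0.634% and 25.1% among brighter genes. Of the 9 factors 5 were brighter than the median gene and 4, Zmynd10 and Dnaaf1 among them, were dimmer.

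Centring each array on its median in place of loess, the intensity-dependent correction of dye bias, raised the median of all measured genes to 0.12 and that of the 9 factors to 0.05. The median of the factors minus that of all genes was -0.067 with this centring and -0.063 with loess. With that centring Zmynd10 read -0.18 on array 1 and -0.61 on array 2, so its arrays differed under that setting. They differed little with the scanner software's log ratios (-0.55 and -0.57) or the deposited values (-0.55 and -0.56). With median centring Dnaaf1 read -0.43 and -0.56. The means of Dnaaf2, Dnaaf4, Spag1, Ccdc103 and Cfap298 moved above 0 with this centring. Each of these genes was above 0 on array 1 and below 0 on array 2, such as Dnaaf2 at 0.80 and -0.53. Dnaaf5 had opposite signs too, at 0.89 on array 1 and -0.24 on array 2. Only Zmynd10, Dnaaf1 and Dnaaf11 were below 0 on both arrays with this centring, where 19.9% of all measured genes were. Without the spike-in slopes, the ratio of Dnaaf1 was the largest with the deposited value table, at -0.62 (-0.53 on array 1 and -0.70 on array 2). There it still missed the 1.5-fold rule on array 1. Divided by the spike-in slopes its mean was -0.66, and it passed the rule on each array.

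**Figure D3:**
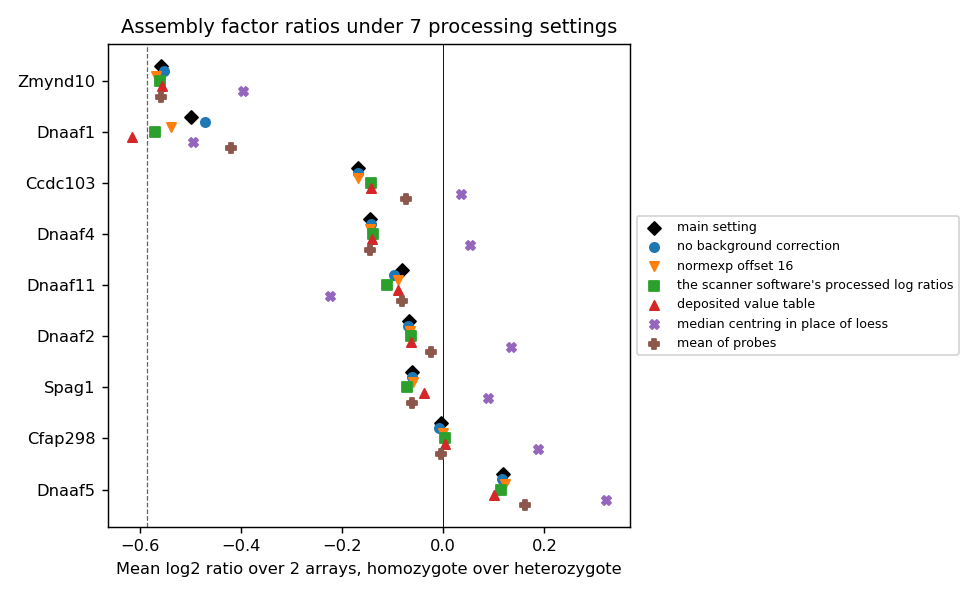
Mean log2 ratio over the 2 arrays of each measured assembly factor under 7 processing settings (symbols), with a dashed line at 1.5-fold lower. Zmynd10 stays between -0.57 and -0.40 and Dnaaf1 between -0.62 and -0.42, while 5 of the other 7 genes lie above 0 with median centring and below 0 in the main setting.

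Other genes of the arm pathway were listed by role, with earlier results of these data known. Among the genes listed as subunits of the outer arm, which sets beat frequency, 1 of 10 measured was lower and 0 higher. Their median log2 ratio was -0.21, and 5 were below 0 on both arrays. No heavy or intermediate chain of this list was called. The lower gene was Dynlrb2, a roadblock light chain, at -0.95 ± 0.038 (SD, n = 2 arrays), with its other probe at -0.82. With median centring Dynlrb2 missed the rule on array 1 (-0.39). The member next farthest from 0, the heavy chain Dnah9, read -0.41 ± 0.21, with its other probe at -0.20. Inner arm subunits, which shape the bend, had 0 of 7 called and a median of -0.25. That median was -0.13 with the mean of probes, and -0.11 over 14 genes without the filter on dim probes. In the main setting 7 of 7 were below 0 on both arrays, where 34.0% of all measured genes and 42.8% of those dimmer than the median were. With median centring 4 of 7 were, where 19.9% of all measured genes were. This list is dim, with 1 of 7 brighter than the median gene. Dnah6 (-0.36 ± 0.084) and the light intermediate chain Dnali1 (-0.32 ± 0.036) were farthest from 0. Of the arm genes listed, 10 of 12 outer and 7 of 14 inner arm genes were measured; the others, among them Dnah17, Dnai2 and Dnah10, had probes that were not well above background.

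Docking genes, which anchor the outer arm to the doublet, had 0 of 4 called, with Odad2 at 0.35 ± 0.24 and Odad4 at -0.31 ± 0.048. Their median was -0.13, but 0.0015 with median centring and 0.019 with the mean of probes. The further assembly factors outside the 10 had 0 of 6 called and a median of -0.03, with Lrrc56 at -0.26 ± 0.034 and Dnaaf10 at 0.20 ± 0.085. The general chaperones on which assembly depends, R2TP subunits with HSP90 and HSP70, had 0 of 11 called and a median of -0.0032, with Hsp90aa1 at 0.16 ± 0.33 and Pih1d2 at -0.14 ± 0.18. Of the listed genes that switch on ciliary programmes, 4 were measured and 0 called. Foxj1, the main activator of motile cilium genes, read -0.52 ± 0.091 (-0.59 on array 1 and -0.46 on array 2), and Myb read 0.11 ± 0.22. The other Myb probes read 0.15, 0.41 and -0.29. With median centring Foxj1 read -0.0016 and -0.62, and divided by the spike-in slopes it read -0.72 and -0.65, past the rule. No difference between these lists was tested.

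**Figure D4:**
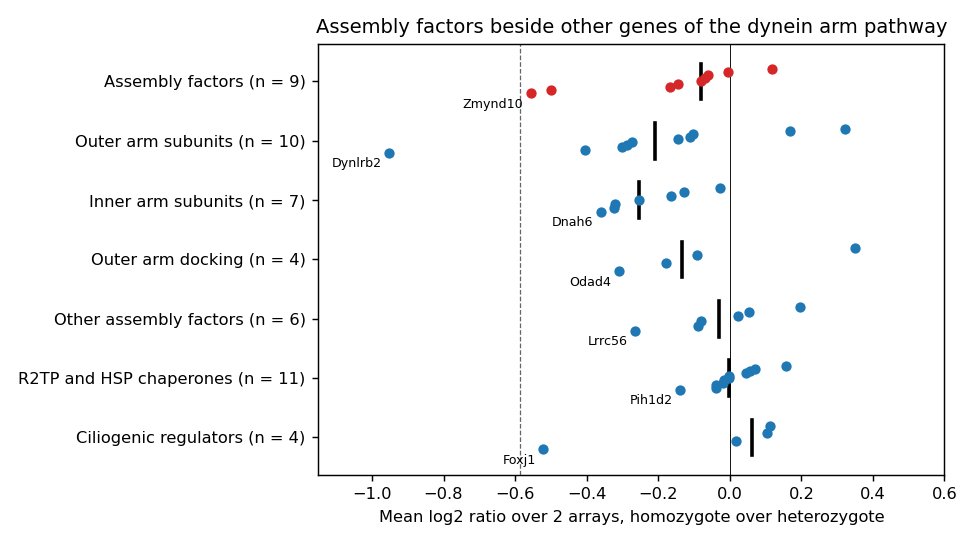
Mean log2 ratio over the 2 arrays of each measured gene (points) in the assembly factors (red) and 6 other lists of the pathway (blue), with the median of each list as a black bar and a dashed line at 1.5-fold lower; the lowest gene of each list is named. Dynlrb2 alone passes the line, Zmynd10, Dnaaf1 and Foxj1 come close to it, and the medians run from -0.25 for inner arm subunits to 0.06 for ciliogenic regulators.

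Among the 42 measured genes of these lists, those whose 2 array ratios lay nearest to the medians of the 9 factors were Daw1, Dnah7c, Dnaaf6b, Dnah1 and Clxn. Their distances over the 2 arrays were 0.030, 0.070, 0.072, 0.084 and 0.10 on the log2 scale, and the Dnah7c probe may also read its near-identical copies.

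All 10 listed node and notochord markers were well above background in all 4 samples, as were 17223 of the 18624 measured genes. The flag alone therefore does not show that the node was present. The mean log2 level of the 10 markers was 12.32 in the heterozygote on each array and 12.07 and 12.12 in the homozygote. Their median ratio was -0.27 with 0 of 10 called, and 6 were below 0 on both arrays, with Gsc (-0.66 ± 0.20) and Foxd4 (-0.57 ± 0.087) farthest from 0. The 2 above 0 on both arrays, named after their values were seen, were T (0.33 ± 0.016) and Chrd (0.08 ± 0.031). At the looser rule 5 of 10 were lower (Foxd4, Foxj1, Gsc, Lefty1 and Shh), beside 2 of the 9 assembly factors and 6.36% of all measured genes. Divided by the spike-in slopes 3 of 10 passed the 1.5-fold rule (Foxd4, Foxj1 and Gsc). Foxj1 stands among the regulators too. Of the blood markers, 3 globin genes of 8 measured and 10 listed were lower (Hba-a1, Hba-a2 and Hbb-bt, from -0.86 to -1.36), or 2 of 8 with median centring, where 2.33% of all measured genes were. The other Hbb-bt probes read -0.51, -0.98 and -1.27. The globin genes Hbb-y (-0.44 ± 0.12) and Hbb-bh1 (-0.19 ± 0.028), also named after their values were seen, were below 0 on both arrays but not called. Gata1 was above 0 on both arrays (0.21 ± 0.11), Klf1 had opposite signs (-0.07 ± 0.12) and Alas2 read -0.09 ± 0.0054, all 3 named after their values were seen. The list's mean level was 9.91 and 9.69 in the heterozygote and 9.44 and 9.19 in the homozygote. Of the 8 measured blood markers 6 were well above background in all 4 samples. The lists of visceral endoderm, trophoblast and decidua, mesoderm, and neural and surface ectoderm had medians of 0.02, -0.01, 0.03 and -0.18. Of these, Prl8a2 was higher (1.11 ± 0.031) and Meox1 lower (-0.62 ± 0.039), the latter not with median centring or the mean of probes, while Zic2 (-0.64 ± 0.32, past the rule when divided by the spike-in slopes), Pax6 (0.45 ± 0.14), Plet1 (-0.53 ± 0.18), Mesp1 (0.08 ± 0.079), Cubn (0.24 ± 0.18) and Apob (0.21 ± 0.17) were not called. The part of these shifts in the assembly factor ratios was not tested.

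Promoter sequence was examined because motile cilium genes are known targets of FOXJ1 and RFX factors, which bind the forkhead motif and the X-box. The RefSeq promoter table (build GRCm38.p6), which gives 250 bases before and 50 after a start site, held a window for 7 of the 10 genes: Dnaaf2, Dnaaf3, Dnaaf4, Dnaaf5, Zmynd10, Ccdc103 and Cfap298. Both strands were searched for a forkhead motif (TGTTTAC), an RFX core (GTTGCCA) and a spaced X-box (GT, any 2 bases, CC, any 3, G, any 2, AC). The RFX core was present in 4 of the 7 windows, those of Dnaaf2, Dnaaf4, Zmynd10 and Cfap298, and in 4.38% of all 32851 windows. The spaced X-box was present in 4 of the 7, those of Dnaaf2, Dnaaf5, Zmynd10 and Cfap298, and in 4.62% of all. Either of them was in 5 of the 7 and in 8.18% of all, and both were in 3 of the 7 and in 0.819% of all. The forkhead motif was in 0 of the 7 and in 3.65% of all.

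The stretches that hold these matches are given 5′ to 3′ on the strand of the gene, with the matches in capitals. The first 4 run from 50 bases before to 30 after the start site, and that of Cfap298 from position -200 to -51.
Zmynd10, chr9:107547254-107547333, plus strand: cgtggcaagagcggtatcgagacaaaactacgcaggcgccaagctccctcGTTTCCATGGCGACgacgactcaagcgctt
Dnaaf2, chr12:69198400-69198479, minus strand: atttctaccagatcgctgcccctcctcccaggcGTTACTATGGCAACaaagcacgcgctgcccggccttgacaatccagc
Dnaaf5, chr5:139150185-139150264, plus strand: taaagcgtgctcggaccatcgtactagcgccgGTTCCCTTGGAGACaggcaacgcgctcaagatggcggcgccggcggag
Dnaaf4, chr9:72958735-72958814, plus strand: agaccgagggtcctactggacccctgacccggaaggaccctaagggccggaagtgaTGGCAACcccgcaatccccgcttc
Cfap298, chr16:90934900-90935049, minus strand: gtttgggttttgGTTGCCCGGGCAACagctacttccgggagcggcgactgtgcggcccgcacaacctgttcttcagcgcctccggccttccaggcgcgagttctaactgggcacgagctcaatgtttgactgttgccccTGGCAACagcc
In Zmynd10 the spaced X-box begins at the start site itself, and an RFX core lies outside the stretch, 39 bases into the transcript. In Dnaaf2 the RFX core is the end of the spaced X-box, so the 2 motifs count the same bases. The spaced X-box reads nearly alike on both strands, and a match on either counted as 1. With both motifs present, Zmynd10 read -0.56, Dnaaf2 -0.07 and Cfap298 -0.0037, and Dnaaf4, with the RFX core alone, read -0.14. A relation between matches and ratios was not tested. Dnaaf5, with ratios above 0 on both arrays, holds the spaced X-box, and Ccdc103, at -0.17, holds none of the 3 motifs in this window. Windows for Dnaaf1, Spag1 and Dnaaf11 were not used here. A match is a description of letters and does not show binding.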

How the data were processed

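Each array was read from 1 scanner file, since the files of its 2 samples were identical. Per the submitters' processing notes, the authors used Agilent Feature Extraction 9.5.3.1. Per the file headers it wrote foreground and background intensity per spot, processed intensity, a log10 ratio of red over green, and flags. The value table that the authors deposited holds intensity floored at 15, with its scaling unstated. From foreground and local background, limma 3.58.1 in R 4.3.3 applied normexp (offset 50) and loess, with control spots at weight 0 and outlier spots left out. Array 2 was turned to read homozygote over heterozygote, and levels per sample also had Aquantile applied. Symbols came from a RefSeq table (GRCm38.p6): 33116 probes matched and 8058 kept the file's name. The procedure was tested on simulated data. Members, lists and rules were chosen with earlier results of these data known; all members are named, and in each list every called gene or, with fewer than 2, the 2 farthest from 0. Other settings, including each array alone, are in the closing section. Python 3.11.15, numpy 2.4.6, pandas 2.3.3 and matplotlib 3.10.9 were used. The number of arrays limits precision.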

Additional observations from a re-analysis of the deposited data

How the results depend on the processing

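Compared first were no background correction, an offset of 16, scanner software log ratios, deposited values, the mean of probes and outlier spots kept. With these the median of the 9 factors stayed between -0.11 and -0.07, 0 were called, and 4 to 6 were below 0 on both arrays. The share of all measured genes below 0 on both was 31.9% to 34.3% with these settings. Dropping or tightening the filter could not change the factors, because all their probes were well above background in both genotypes on both arrays. Median centring gave 0.054 with 3 below 0 on both, where 19.9% of all measured genes were. At a log2 ratio below -0.32 on each array 2 were lower, and 2 with ratios divided by the spike-in slopes, an alternative chosen after seeing the data. The median was -0.17 without replicate 1 (array 2 alone) and -0.054 without replicate 2, with 0 called either way. Over the settings that use both arrays, 21 single gene values moved by more than their SD over arrays, 69 did not, and 8 had another sign. The 69 include the values of the 2 filter settings, which could not move. The counts depend on each gene's own SD, which was 0.0013 for Ccdc103 and 0.40 for Spag1. Ccdc103 moved in 5 settings and Spag1 in 0, though the Spag1 mean ran from -0.11 to 0.089. On array 1 alone Spag1 (0.22) and Cfap298 (0.034) were also above 0. The cause was not tested. Over all measured genes 434 were lower and 11 higher, against 714 and 101 with the scanner software's log ratios, 651 and 95 with deposited values, 539 and 22 with an offset of 16, and 686 and 65 with the spike-in slopes. Each ratio is taken within an array and so already compares the 2 samples that share a replicate number. No paired analysis was possible because the 2 arrays are technical replicates, which give no independent pairs to test.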
